A study of Mus musculus with 20 samples.

Results

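The genes described here mark border-associated macrophages or encode scavenger receptors. They are Mrc1, Cd163, Lyve1, Pf4, F13a1, Cbr2, Ms4a7, Stab1, Msr1 and Cd36, that is 10 of the 38872 genes with a symbol in the count table. They were chosen by name, and each symbol was matched to 1 gene identifier. In mm10 the genes that the results turn on lie apart, with Msr1 at chr8:39581685-39642673 on the - strand, Pf4 at chr5:90772435-90773383 on the + strand and Mrc1 at chr2:14229392-14332057 on the + strand. All 10 had enough counts to be among the 16107 genes tested.

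The tissue was the left hippocampus of 20 female C57BL/6 mice, aged 12 to 13 months and perfused with PBS before dissection, with 1 mRNA library per mouse. There were 4 groups of 5 mice: Non-Tg miR34a+/+ (WT Non-Tg), Non-Tg miR34a-/- (KO Non-Tg), TgSwDI miR34a+/+ (WT Tg-SwDI) and TgSwDI miR34a-/- (KO Tg-SwDI). Tg-SwDI mice carry a human amyloid precursor protein gene with the Swedish, Dutch and Iowa mutations, which is driven by the Thy1 promoter and hence by neurons, and the miR-34a deletion is constitutive and in every cell of the body. The study asked what loss of miR-34a does to the brain of this Alzheimer's disease model, and mice are named below by group and by the number in their label.

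Border-associated macrophages live in the meninges, around blood vessels and in the choroid plexus, whereas microglia live in the brain tissue itself. They take up proteins, lipids and debris from the fluids at the brain's edges through scavenger receptors, and some of these receptors bind amyloid-β. A dissected hippocampus carries few of these cells, some of them around its own blood vessels. Their number can also vary with how much of the overlying meninges and of the choroid plexus of the lateral ventricle comes away with it.

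MiR-34a pairs with messenger RNAs mainly through its seed, bases 2 to 8, shown here in capitals because this is the sequence whose loss the KO groups share. The mature strand lies at chr4:150068473-150068494 on the + strand of GRCm38.p6 (RefSeq).

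mmu-miR-34a-5p: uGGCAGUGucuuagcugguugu

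The reverse complement of the seed, CACTGCC, was searched on the coding strand in the longest 3′UTR that GENCODE M21 annotates for each gene. None of the 10 genes held it, in 3′UTRs of 123 to 2518 bases, and none held the other common site type, in which an A follows the match to bases 2 to 7. Of 14699 tested genes with an annotated 3′UTR, 17.3% held the first site and 23.6% held either. The absence says only that these letters are not in these windows.

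Promoters of 8 of the 10 genes were listed by RefSeq for GRCm38.p6, 10 windows in all, each with 250 bases before and 50 after a transcription start. PU.1 is the transcription factor that macrophages and microglia depend on. A PU.1-type motif, GAGGAAGT on either strand, stood in 2 of these windows, one each of F13a1 and Pf4, against 3.2% of all 32851 promoters of that length. The shorter core GAGGAA, which lies inside that motif, stood in 7 of the 10 windows against 28.3% of all. The 2 windows with the longer motif are shown, with the motif in capitals, on the strand of the gene. F13a1 lies at chr13:37049164-37049463 on the - strand and Pf4 at chr5:90772185-90772484 on the + strand.

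F13a1: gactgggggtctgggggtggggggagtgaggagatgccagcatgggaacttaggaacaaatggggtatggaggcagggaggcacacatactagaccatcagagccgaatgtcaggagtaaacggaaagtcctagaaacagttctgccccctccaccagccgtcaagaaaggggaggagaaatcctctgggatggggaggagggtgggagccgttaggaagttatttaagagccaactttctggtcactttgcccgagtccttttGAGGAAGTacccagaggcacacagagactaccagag
Pf4: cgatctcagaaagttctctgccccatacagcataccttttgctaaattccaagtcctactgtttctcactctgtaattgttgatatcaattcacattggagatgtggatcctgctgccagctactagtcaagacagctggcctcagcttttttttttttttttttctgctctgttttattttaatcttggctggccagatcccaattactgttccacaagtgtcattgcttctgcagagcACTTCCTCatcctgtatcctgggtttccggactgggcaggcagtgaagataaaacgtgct

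Library totals were 19549622 to 21066868 counts. Thy1, whose promoter drives the transgene, had 684 to 769 CPM (counts scaled to a common library size with TMM factors) in Non-Tg mice and 1903 to 3316 CPM in Tg-SwDI mice, and the microRNA itself was not analysed here. Libraries differed in how much choroid plexus RNA they held. Ttr, the transthyretin gene that choroid plexus epithelium transcribes at a very high level, had 1690 to 3895 CPM in 11 libraries and 29.8 to 277 CPM in the other 9, which are called libraries with and without choroid plexus RNA below although Ttr was at 0 in none. The summed level of all 15 choroid plexus genes was 69.9 to 4586 CPM in WT Non-Tg, 71.7 to 372 CPM in KO Non-Tg, 134 to 3949 CPM in WT Tg-SwDI and 141 to 4104 CPM in KO Tg-SwDI mice. Over the same genes, a score per library (mean log2 CPM, centred on the 20 libraries) ran from 1.04 to 2.21 in the first set and from -2.94 to -0.91 in the second. The 11 libraries were 3 of 5 WT Non-Tg, 0 of 5 KO Non-Tg, 4 of 5 WT Tg-SwDI and 4 of 5 KO Tg-SwDI. Any comparison with KO Non-Tg mice is therefore also a comparison with libraries without choroid plexus RNA.

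The genes were read at low to moderate levels. Per kilobase of exon, Stab1, a large endocytic receptor of macrophages and some endothelium, had the highest mean level at 1.58 CPM per kilobase, followed by Cbr2, a carbonyl reductase of resident macrophages, at 0.771. Pf4, the chemokine platelet factor 4, followed at 0.736 and Mrc1, the mannose receptor CD206, at 0.714. Cd36, a fatty acid and lipoprotein receptor, had 0.392, Cd163, the receptor for haemoglobin bound to haptoglobin, 0.350, F13a1, the A chain of coagulation factor XIII, 0.345, and Lyve1, a hyaluronan receptor, 0.332. Ms4a7, a membrane protein of the MS4A family, had 0.118 and Msr1, the class A scavenger receptor, 0.0525 CPM per kilobase. Between Cbr2, Pf4 and Mrc1, and between Cd36, Cd163, F13a1 and Lyve1, the per-kilobase levels of single mice overlapped, so neither order is firm.

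Low counts limit what could be seen for 3 of the genes. The filter asked for about 0.483 CPM in at least 5 libraries. Msr1 reached that level in exactly 5 libraries (1 WT Non-Tg, 1 WT Tg-SwDI and 3 KO Tg-SwDI), Ms4a7 in 9 and Pf4 in 10, whereas the other 7 genes reached it in 19 or 20. No KO Non-Tg library reached it for Msr1 or Ms4a7. Without the KO Tg-SwDI libraries Msr1 would have had 2 of the 5 it needed and would not have been tested.

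**Figure D1:**
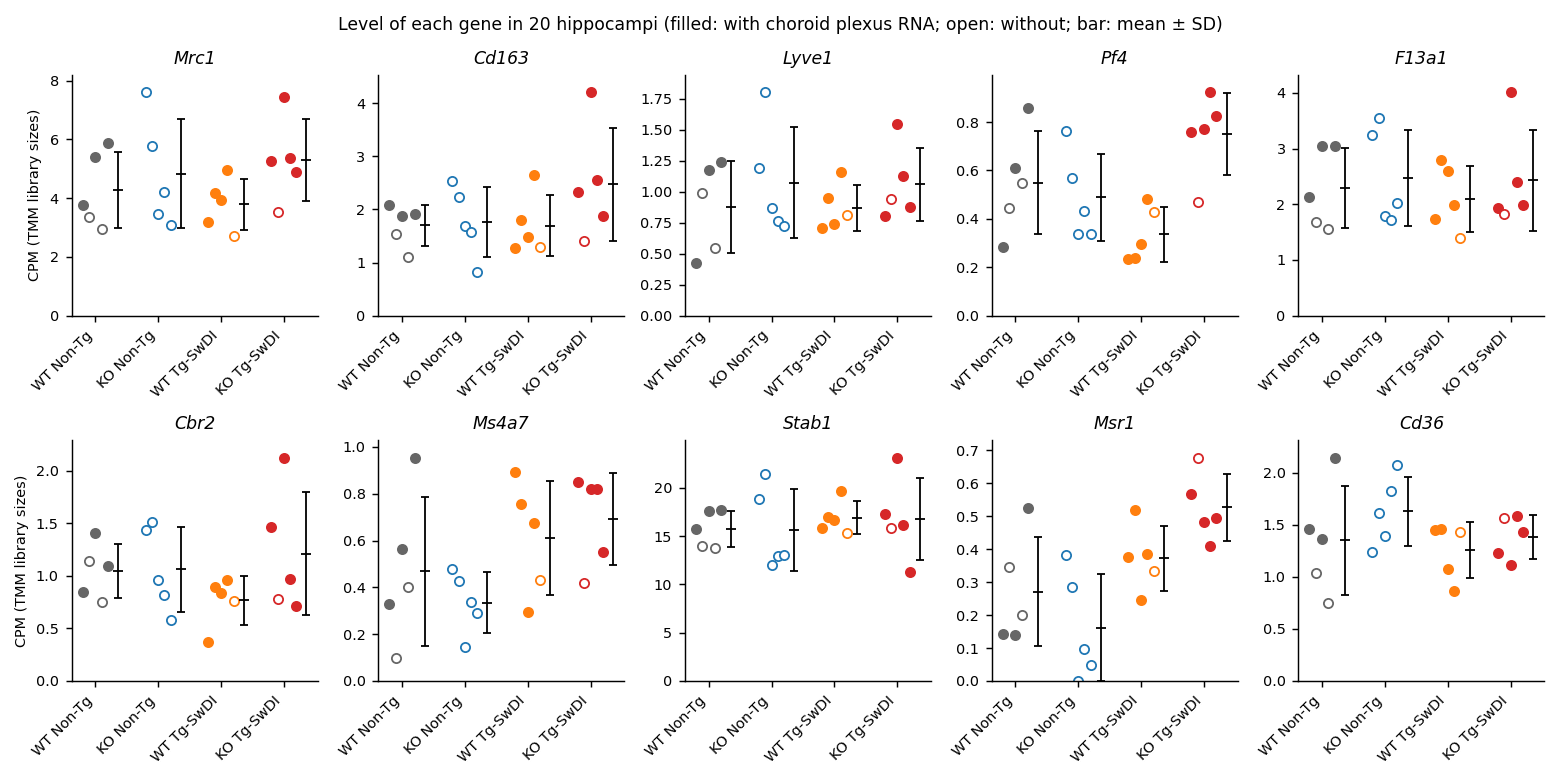
CPM (y axis, linear) of each of the 10 genes in the 20 libraries, by group on the x axis. Each point is 1 mouse, filled where the library held choroid plexus RNA and open where it did not, and the bar is the group mean ± SD (n = 5). Msr1 is the gene whose KO Tg-SwDI points (0.410 to 0.678 CPM) all lie above the KO Non-Tg points (0 to 0.382 CPM).

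Loss of miR-34a in Tg-SwDI mice was the first comparison. No gene of the 10 passed the test at a Benjamini-Hochberg adjusted p under 0.05 in edgeR's quasi-likelihood fit, where 1.99% of all tested genes did (1.48% with a higher level in KO). EdgeR's exactTest called 1, Pf4, but the share of all genes that it called is not given here. DESeq2 called 0 of the 7 genes to which it gave an adjusted p and gave none to Pf4, Ms4a7 and Msr1. At an unadjusted p under 0.05 there were 2 of 10, Pf4 and Cbr2, against 19% of all genes. The log2 fold changes of 9 of the 10 lay above 0 with a median of 0.39, beside a median of 0.00 over all genes.

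Pf4 came nearest to the threshold. It is a heparin-binding chemokine stored in platelets and also transcribed by border-associated macrophages. In WT Tg-SwDI mice 3, 4, 5, 6 and 7 it had 0.235, 0.236, 0.294, 0.483 and 0.430 CPM, and in KO Tg-SwDI mice 1, 2, 3, 5 and 8 it had 0.757, 0.469, 0.773, 0.922 and 0.825 CPM. In the KO group 4 values lay above the whole WT group, and KO mouse 2 fell inside its range. The means were 0.336 ± 0.114 and 0.749 ± 0.169 CPM (SD, n = 5), a log2 fold change of 1.15 ± 0.32 (SE; 95% interval 0.50 to 1.80) with an adjusted p of 0.0537 (edgeR quasi-likelihood). These values are 5 to 18 reads per library. With the choroid plexus score of each library in the fit, the log2 fold change was 1.15 ± 0.31 and the adjusted p by edgeR was 0.0419, in a fit that called 3.58% of all genes. Among the libraries with choroid plexus RNA (4 mice a group) it was 1.39 ± 0.35 with an adjusted p of 0.114 by edgeR, and between the single WT and the single KO mouse without it, 0.11 ± 0.74, where each lone mouse is assumed to vary like the Non-Tg mice. Ppbp, a defining platelet gene, was at or near 0, with at most 0.0966 CPM in either Tg-SwDI group. The summed level of the 8 platelet genes was 14.0 to 16.6 CPM in WT and 13.7 to 18.1 CPM in KO Tg-SwDI mice, 4 of the 8 could be tested, 0 were called by edgeR and 3 had an unadjusted p under 0.05. The part of platelet RNA in the Pf4 values was not tested.

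Cbr2, Mrc1 and Cd163 also had higher means without miR-34a, inside the spread of the mice. Cbr2 was 0.768 ± 0.232 CPM in WT and 1.21 ± 0.589 CPM in KO Tg-SwDI mice (log2 fold change 0.67 ± 0.31, adjusted p = 0.24 by edgeR). Mrc1 was 3.79 ± 0.873 and 5.30 ± 1.40 CPM, and Cd163 was 1.70 ± 0.577 and 2.47 ± 1.06 CPM, with log2 fold changes of 0.49 ± 0.25 and 0.55 ± 0.28. KO Tg-SwDI mouse 3 held the highest value of its group in all 3 genes, with 2.13 CPM of Cbr2, 7.44 CPM of Mrc1 and 4.20 CPM of Cd163. Without that mouse the log2 fold changes were 0.37, 0.33 and 0.27. Stab1 was the gene with the narrowest interval, from -0.36 to 0.34 around a log2 fold change of -0.01.

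Lyve1, F13a1, Ms4a7, Msr1 and Cd36 had log2 fold changes of 0.28, 0.22, 0.19, 0.49 and 0.13 in the same comparison, with intervals that all included 0. The CPM ranges of the WT and KO groups overlapped for all 10 genes, while 3.16% of all tested genes had ranges that lay apart (2.04% upwards).

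In Non-Tg mice, loss of miR-34a left the 10 genes without a call. EdgeR's quasi-likelihood test, edgeR's exactTest and DESeq2 each called 0 of 10, the first called 0% of all genes, and 0 of 10 stood at an unadjusted p under 0.05 against 8.08% of all. Log2 fold changes ran from -0.71 (Msr1) to 0.29 (Lyve1) with a median of 0.04. The intervals were wide for the scarce genes, from -1.79 to 0.37 for Msr1 and from -1.36 to 0.39 for Ms4a7, and narrow for Stab1, from -0.36 to 0.34. The CPM ranges overlapped for all 10 genes, where 2.23% of all genes had ranges apart (1.33% upwards). Here 3 of the 5 WT libraries and none of the KO libraries held choroid plexus RNA. With the choroid plexus score in the fit, the median log2 fold change was 0.29, with 8 of the 10 above 0 and 2 below. With the meningeal fibroblast score described further on, it was 0.13, with 7 above 0 and 3 below. Each of these fits called 0 of 10 by edgeR and 0% of all genes. Mrc1 alone had an unadjusted p under 0.05 in them (0.52 ± 0.23 and 0.29 ± 0.11).

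The transgene was compared next, within KO mice. Of the 10 genes 1 was called, Msr1, which is a smaller share than the 20.8% of all tested genes called in this comparison (12.5% upwards). At an unadjusted p under 0.05 there were 3 of 10 (Msr1, Ms4a7 and Pf4) against 33.5% of all. The median log2 fold change of the 10 was 0.17 beside -0.01 over all genes.

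Msr1 encodes the class A receptor through which macrophages and microglia bind modified lipoproteins and fibrillar amyloid-β. KO Non-Tg mice 1, 2, 4, 7 and 8 had 8, 6, 0, 2 and 1 reads, or 0.382, 0.284, 0, 0.0959 and 0.0483 CPM. KO Tg-SwDI mice 1, 2, 3, 5 and 8 had 12, 13, 10, 8 and 9 reads, or 0.568, 0.678, 0.483, 0.410 and 0.495 CPM. The ranges lay apart, as they did for 12.8% of all genes (8.47% upwards), although the lowest KO Tg-SwDI and the highest KO Non-Tg mouse had 8 reads each. The group means were 0.162 ± 0.164 and 0.527 ± 0.101 CPM, and Msr1 was 3.15-fold higher with the transgene (log2 fold change 1.66 ± 0.47, adjusted p = 0.0136, edgeR quasi-likelihood). Since Msr1 passed the filter only through the group where it was high, this call depends in part on that selection. With no filter the log2 fold change was 1.66 and the adjusted p by edgeR 0.00977.

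The call for Msr1 was lost with choroid plexus RNA in the fit. With the score in the fit, the log2 fold change was 1.69 ± 0.55, against 1.66 without it, and the adjusted p by edgeR 0.0631, and 0 of the 10 genes were called where 7.61% of all were. Among the 9 libraries without choroid plexus RNA, which set 5 KO Non-Tg mice against 1 KO Tg-SwDI mouse, it was 2.003 ± 0.803 (adjusted p = 0.155 by edgeR), where the lone transgenic mouse is assumed to vary like the mice of the other groups. The highest Msr1 value of all 20 mice, 0.678 CPM, came from KO Tg-SwDI mouse 2, whose library held no choroid plexus RNA. That value is 13 reads in a single library. Within the groups Msr1 had a slope of -0.01 ± 0.10 on the choroid plexus score. The part of choroid plexus RNA in the Msr1 difference was not tested beyond these fits.

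Ms4a7 and Pf4 stood higher in KO Tg-SwDI than in KO Non-Tg mice without a call. Ms4a7 had 0.478, 0.427, 0.145, 0.336 and 0.290 CPM in KO Non-Tg mice 1, 2, 4, 7 and 8, and 0.852, 0.417, 0.821, 0.820 and 0.550 CPM in KO Tg-SwDI mice 1, 2, 3, 5 and 8. Of the transgenic mice 4 lay above all 5 others, and the one that did not, mouse 2, was again the library without choroid plexus RNA. The log2 fold change of Ms4a7 was 1.04 ± 0.40 (adjusted p = 0.067 by edgeR) and became 0.38 with the choroid plexus score in the fit. For Pf4 it was 0.61 ± 0.29 (adjusted p = 0.146 by edgeR) and became 0.42. The Pf4 value of mouse 2, 0.469 CPM, lay inside the KO Non-Tg range of 0.338 to 0.765 CPM. Mouse 2 is a single library, and the part of choroid plexus RNA in both differences was not tested beyond these fits.

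The other 7 genes showed no call and overlapping ranges in KO mice, with log2 fold changes from -0.24 (Cd36) to 0.49 (Cd163). Mrc1 was 4.83 ± 1.86 CPM in KO Non-Tg and 5.30 ± 1.40 CPM in KO Tg-SwDI mice, and its log2 fold change of 0.14 became -0.31 with the choroid plexus score in the fit. That of Cbr2 went from 0.20 to -0.03 and that of Stab1 from 0.10 to -0.05. In all, 6 of the 10 estimates then lay below 0.

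In WT mice, where both groups held libraries with choroid plexus RNA, the transgene changed none of the 10 genes past the threshold (0 of 10 by edgeR's quasi-likelihood test, by edgeR's exactTest and by DESeq2, where the first called 4.41% of all genes, 3.94% upwards). With the choroid plexus score in the fit 0 of 10 were called by edgeR against 4.28%, and with the meningeal fibroblast score described further on 0 of 10 against 5.32%, with 1 and 0 of 10 at an unadjusted p under 0.05. At an unadjusted p under 0.05 there was 1 of 10, Pf4, against 15.2% of all. WT Non-Tg mice 2, 3, 4, 6 and 7 had 0.284, 0.446, 0.610, 0.549 and 0.859 CPM of Pf4, of which 3 lay above all 5 WT Tg-SwDI mice. The log2 fold change was -0.70 ± 0.33 (adjusted p = 0.30 by edgeR). Ranges overlapped for all 10 genes, where 6.69% of all genes had ranges apart (5.1% upwards). Msr1 was 0.271 ± 0.165 and 0.372 ± 0.0995 CPM (log2 fold change 0.46, interval -0.47 to 1.38). The interval of the Msr1 estimate reaches from a decrease to more than 2-fold higher, so these counts could not show a moderate change.

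**Figure D2:**
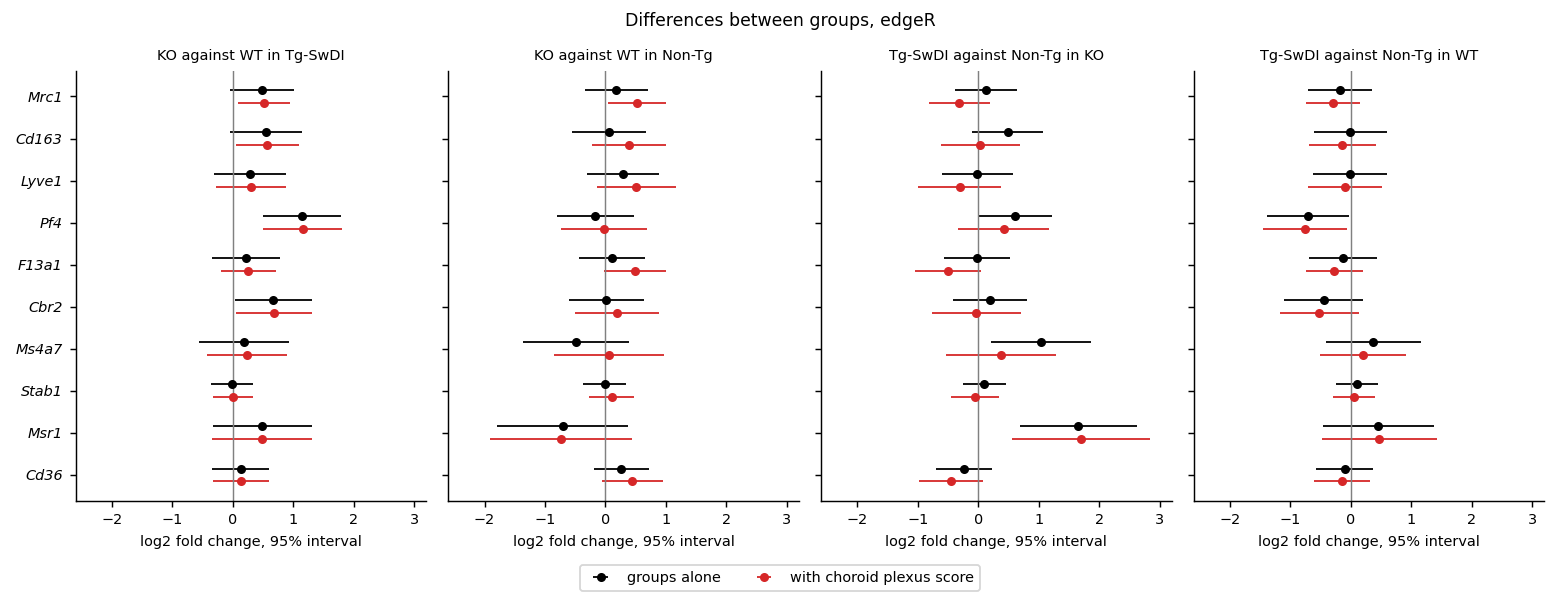
Log2 fold change (x axis) of each gene in the 4 comparisons, with 95% intervals, from edgeR's fit of the 4 group means (black) and with the choroid plexus score added (red). Between Tg-SwDI and Non-Tg in KO, Msr1 goes from 1.66 to 1.69 (adjusted p by edgeR from 0.0136 to 0.0631, so that its call is lost) and Ms4a7 from 1.04 to 0.38, and between KO and WT in Tg-SwDI Pf4 stays at 1.15 (adjusted p by edgeR from 0.0537 to 0.0419).

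The difference between these differences, the interaction of transgene and miR-34a, was tested in the same fit. None of the 10 genes was called by edgeR's quasi-likelihood test or its likelihood ratio test, and 0.608% of all genes were called by the first (0.428% upwards). DESeq2 called 0 of the 3 genes to which it gave an adjusted p (Mrc1, F13a1 and Stab1). Pf4 alone had an unadjusted p under 0.05, with an interaction of 1.32 ± 0.44 on the log2 scale and an adjusted p of 0.134 by edgeR, against 17.5% of all genes. Msr1 had 1.20 ± 0.66 with an interval from -0.16 to 2.56. The effect of miR-34a loss on these genes was therefore not shown to differ between Tg-SwDI and Non-Tg mice.

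How far the genes followed choroid plexus carry-over was then measured across mice within groups, as the slope of a gene's log2 level on the score. None of the 10 had a slope past the threshold in edgeR's quasi-likelihood test, where 2.99% of all genes did (2.86% upwards). All 15 choroid plexus genes did too, but the score is their own mean, so this was fixed by its construction. At an unadjusted p under 0.05 there were 4 of 10 against 13.1% of all genes. These were F13a1 (0.17 ± 0.05 per unit of score), Mrc1 (0.15 ± 0.05), Ms4a7 (0.23 ± 0.09) and Cd163 (0.16 ± 0.06). Ttr, which is itself part of the score, had a slope of 1.39 ± 0.05.

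Some libraries without choroid plexus RNA had high levels of the same genes. KO Non-Tg mice 1 and 2 had choroid plexus scores of -2.79 and -0.91, yet had 7.60 and 5.78 CPM of Mrc1, more than the other 3 mice of their group (3.09 to 4.22 CPM). Stab1 (18.8 and 21.5 CPM against 12.01 to 13.05 CPM), F13a1 (3.25 and 3.55 CPM against 1.73 to 2.03 CPM) and Lyve1 (1.20 and 1.80 CPM against 0.725 to 0.868 CPM) divided the group in the same way. These 2 mice also had the highest meningeal fibroblast scores of their group, 0.75 and 0.54 against -0.70 to -0.58. Leaving out KO Non-Tg mouse 1 brought 2 of the 10 genes past the threshold for the choroid plexus score, Mrc1 (slope 0.18, adjusted p = 0.0021) and F13a1 (slope 0.19, adjusted p = 0.0312 by edgeR), in a fit that called 3.48% of all genes.

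A score built in the same way from 12 genes of meningeal fibroblasts, which make the collagen and proteoglycan of the membranes around the brain, was then used, a step taken after these values had been seen. The score genes were Col1a1, Col1a2, Col3a1, Dcn, Lum, Ogn, Fmod, Slc6a13, Slc22a6, Aldh1a2, Igf2 and Slc13a4, so not all encode collagen or proteoglycan. On the choroid plexus score 2 of these 12 genes had a slope past the threshold by edgeR, against 2.99% of all genes. At an unadjusted p under 0.05 there were 7 of 12, against 13.1%, so the choroid plexus and meningeal scores overlap. On this score 6 of the 10 genes had a slope past the threshold, against 2.66% of all genes (2.42% upwards), and no gene of the 10 is part of the score. Mrc1 had 0.71 ± 0.07 per unit of score, Cd163 0.71 ± 0.13, F13a1 0.70 ± 0.11, Cbr2 0.62 ± 0.17, Lyve1 0.60 ± 0.16 and Stab1 0.36 ± 0.08. Ms4a7 (0.75 ± 0.24) and Pf4 (0.56 ± 0.18) missed the threshold with adjusted p of 0.102 and 0.11 by edgeR. With each mouse left out in turn, Mrc1, Cd163, F13a1 and Stab1 stayed called in all 20 fits, Lyve1 in 9 and Cbr2 in 7. Msr1 (0.41 ± 0.30) and Cd36 (-0.04 ± 0.16) had intervals that included 0.

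With both scores in the fit, the meningeal slopes of the 6 genes remained at 0.45 to 0.80 and 4 were called (Mrc1, Cd163, F13a1 and Stab1, where 0.857% of all genes were called). On the choroid plexus score 0 of the 10 were called, against 1.43% of all genes, with 1 of 10 (Cd36) at an unadjusted p under 0.05 by edgeR. The choroid plexus slopes were -0.01 ± 0.03 for Mrc1, -0.01 ± 0.06 for Cd163 and 0.02 ± 0.05 for F13a1. The 2 scores were themselves correlated within groups (r = 0.66 over 20 mice, a description in which the libraries are shared). In bulk tissue more cells of a type and more RNA per cell cannot be told apart, and the part of meninges in the group differences was not tested beyond the fits given here.

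**Figure D3:**
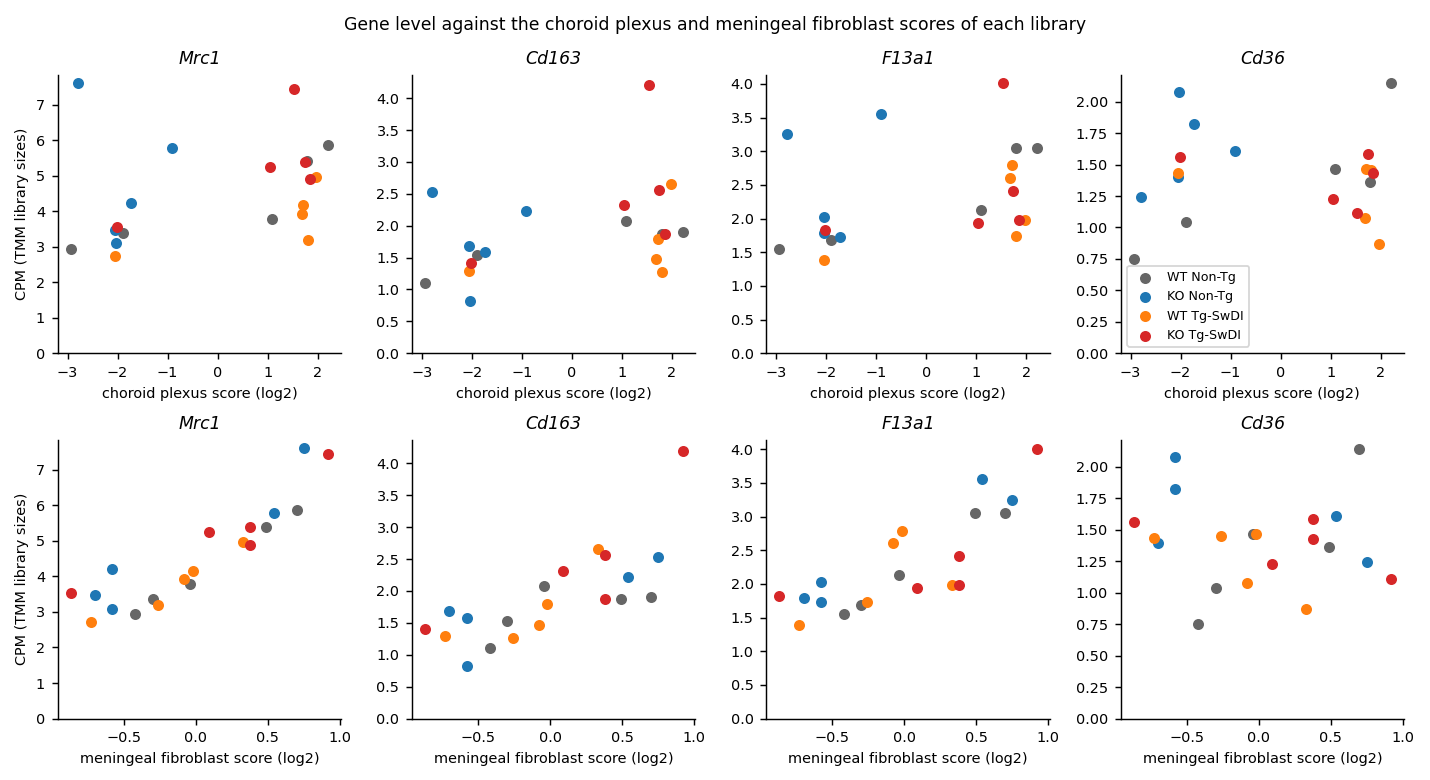
CPM (y axis, linear) of Mrc1, Cd163, F13a1 and Cd36 against the choroid plexus score (upper row) and the meningeal fibroblast score (lower row) of each library, both in log2 units, with 1 point per mouse coloured by group. The choroid plexus score falls into 2 sets of 9 and 11 libraries, and Mrc1 follows the meningeal score closely (r = 0.95 within groups, 20 mice) while Cd36 does not (r = -0.06).

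**Figure D4:**
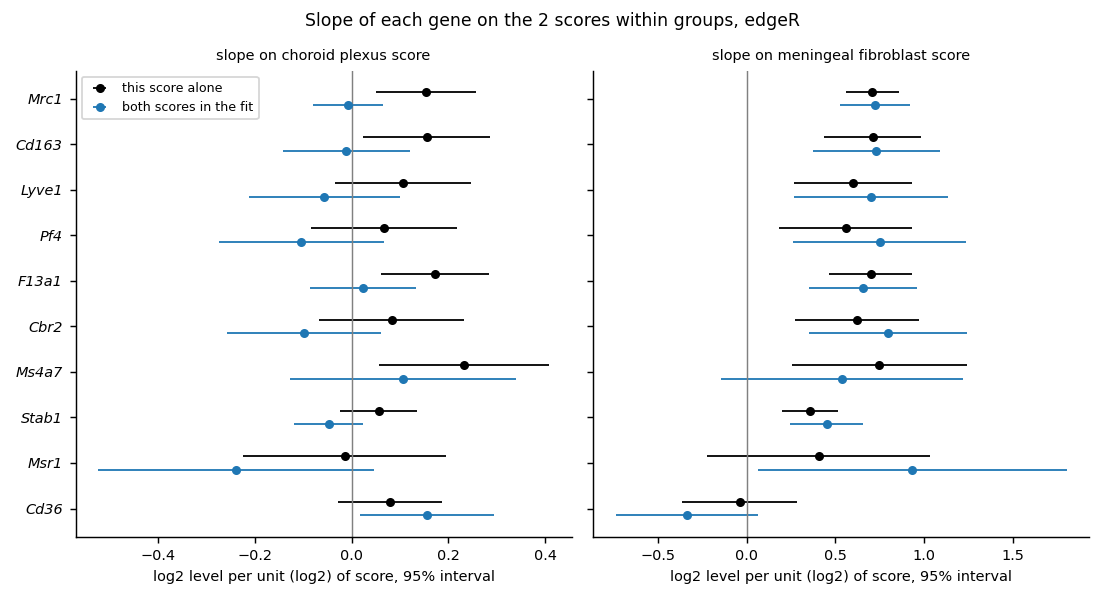
Slope of each gene (x axis, log2 level per unit of score, with 95% intervals) on the choroid plexus score (left) and on the meningeal fibroblast score (right), with that score alone (black) or both scores in the fit (blue). With both scores, 7 of the 10 choroid plexus slopes lie below 0 and 9 of the 10 meningeal slopes above 0.

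The meningeal fibroblast genes themselves were not called between groups. None of the 12 was called by edgeR's quasi-likelihood test in the 4 pairwise comparisons, with an unadjusted p under 0.05 for 1 of 12 in KO against WT Tg-SwDI mice and for 0 of 12 in the others. Their summed level was 202 to 528 CPM in WT Non-Tg, 162 to 421 CPM in KO Non-Tg, 167 to 435 CPM in WT Tg-SwDI and 139 to 521 CPM in KO Tg-SwDI mice. Their median log2 fold change was 0.43 between KO and WT Tg-SwDI mice, beside 0.39 for the 10 genes. With the meningeal score in the fit, the log2 fold change of Mrc1 in that comparison went from 0.49 ± 0.25 to 0.23 ± 0.11. Its SE fell too, and its unadjusted p by edgeR went from 0.0677 to 0.0479 (adjusted p from 0.304 to 0.293). The log2 fold change of Cd163 went from 0.55 ± 0.28 to 0.27 ± 0.20 and that of F13a1 from 0.22 ± 0.27 to -0.05 ± 0.17. Pf4 went from 1.15 ± 0.32 to 0.94 ± 0.28 (adjusted p = 0.0914 by edgeR, 0 of 10 called against 1.35% of all genes). Between Tg-SwDI and Non-Tg KO mice Msr1 stood at 1.58 (adjusted p = 0.0186 by edgeR) and was the 1 gene of the 10 called, against 18.1% of all genes.

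The 10 genes varied together within groups, apart from Cd36. Over the 36 pairs without Cd36, correlations of log2 CPM after removing group means ran from 0.19 to 0.85 with a median of 0.56, and all 36 lay above 0. The 9 pairs with Cd36 ran from -0.32 to 0.31. These are descriptions over 20 mice, in which genes share their libraries. Cd36 is also made by endothelium and by other cells that take up fatty acids.

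Among genes with a mean of at least 1 CPM, those most like a member were found in the same way. For Mrc1 they were Col1a2 (r = 0.95), Col3a1 (0.93) and Aebp1 (0.93), and for Cd163 they were Col1a2 (0.86), Col3a1 (0.86) and Mrc1 (0.85). F13a1 was nearest to Cd151 (0.90), Col1a2 (0.89) and Islr (0.88), and Lyve1 to Crispld2 (0.86), Tagln (0.85) and Atoh8 (0.79). For Stab1 they were Lamb2 (0.90), Plod1 (0.89) and P2ry1 (0.88). The genes nearest to Pf4 and Cd36 were less close, led by Chsy1 (0.77) and Dok1 (0.80), while Cbr2 was led by Ebp (0.84) and Ms4a7 by Glb1l (0.81). Collagen genes thus stood beside Mrc1, Cd163 and F13a1. Col1a2 and Col3a1 are part of the meningeal fibroblast score, so this likeness is not independent of the slopes on that score.

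Other genes of the same cells were read beside the 10. Of 20 further border-associated macrophage genes 12 could be tested, and 5 of these rose with the transgene in KO mice and 1 in WT mice, by edgeR, where 12.5% and 3.94% of all genes rose. Folr2, a folate receptor of these macrophages, had 0.430 ± 0.256 CPM in KO Non-Tg and 1.18 ± 0.193 CPM in KO Tg-SwDI mice (log2 fold change 1.45 ± 0.33, adjusted p = 0.00259 by edgeR). With the transgene in WT mice, Folr2 changed by 0.46 ± 0.34 (adjusted p = 0.576 by edgeR). Its slope on the meningeal fibroblast score was 0.65 ± 0.20 (adjusted p = 0.0738 by edgeR). Ms4a6c rose in both backgrounds (1.22 ± 0.30 and 1.07 ± 0.30 on the log2 scale), and Lilra5, Maf and Ednrb rose in KO mice. Maf is also transcribed by microglia and Ednrb by astrocytes. In WT and KO Non-Tg mice Lilra5 (0.393 and 0.221 CPM) and Ms4a6c (0.355 and 0.364 CPM) had means under the filter level of about 0.483 CPM. Folr2 had a mean under it in KO Non-Tg mice (0.430 CPM) but not in WT Non-Tg mice (0.538 CPM). The means of Lilra5, Ms4a6c and Folr2 lay above it in both Tg-SwDI groups, so their calls may depend in part on that selection. The part of choroid plexus RNA in the KO comparison was not examined for these genes. Loss of miR-34a called 0 of the 12 in either background, with 6 of 12 at an unadjusted p under 0.05 in Tg-SwDI and 1 of 12 in Non-Tg mice, against 19% and 8.08% of all genes.

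Of 16 other scavenger receptors 14 were tested, and 4 rose with the transgene in KO mice and 2 in WT mice, against the same 12.5% and 3.94% of all genes. Cd68, the lysosomal receptor of microglia and macrophages, went from 9.65 ± 0.991 to 83.0 ± 19.4 CPM in KO mice and from 11.8 ± 1.46 to 51.8 ± 4.94 CPM in WT mice. Among Tg-SwDI mice it was 1.60-fold higher without miR-34a (log2 fold change 0.68 ± 0.12, adjusted p = 0.00635 by edgeR). Cxcl16, a membrane-bound chemokine and scavenger receptor, rose by 1.64 ± 0.27 and 1.16 ± 0.27 on the log2 scale, and Scarb2 and Scarf2 rose in KO mice. Stab2, named by the same rule, was not called and did not rise in KO mice. Its log2 fold change with the transgene was -0.45 ± 0.20 in KO mice and 0.43 ± 0.19 in WT mice (adjusted p = 0.105 and 0.262 by edgeR). Among Tg-SwDI mice it was -0.65 ± 0.19 without miR-34a (adjusted p = 0.0725 by edgeR).

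Microglial genes gave the contrast to the 10. All 14 disease-associated and all 14 homeostatic microglia genes rose with the transgene in KO mice, and 14 and 13 of them in WT mice, with medians in KO mice of 3.13 and 1.14 on the log2 scale beside 0.17 for the 10 genes. None of these microglial genes had a slope past the threshold on the meningeal fibroblast score (edgeR, with 2 and 1 of 14 at an unadjusted p under 0.05), against 6 of the 10. Of the 12 other border-associated macrophage genes tested, 3 had such a slope and 7 stood at an unadjusted p under 0.05, and of the 15 choroid plexus genes 6 had one. Ccr2, the defining monocyte gene, stayed between 0.0521 and 0.954 CPM in all mice with no call in any comparison.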

How the data were processed

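The authors aligned stranded mRNA reads to mm10 with STAR and deposited featureCounts read counts per Ensembl gene, without normalization. The strand setting and the handling of reads matching several genes are not given in the sources used here. Counts summed to 19549622 to 21066868 per library, which limits genes with few reads. Symbols and positions came from GENCODE M21, and sequences from RefSeq and GENCODE.

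Samples were grouped by their genotype labels. With edgeR 4.0.16 in R 4.3.3, genes were filtered by filterByExpr (minimum count 10, total 15), scaled by TMM and tested in a robust quasi-likelihood fit of group means, with Benjamini-Hochberg adjustment over 16107 genes at 0.05. Slopes added a list score (mean log2 CPM, prior count 2) as a term. Code was tested on simulated data. The members, gene lists and tests were chosen with earlier results of these data known. Named genes were all members, defining markers, and at most 5 genes with the lowest adjusted p from each of the related lists. Alternatives were DESeq2 1.42.0, exactTest, other filters and scalings, the compared groups alone and a replicate block. Others were choroid plexus and meningeal terms, other forms of the scores (Ttr, the median, or collagen and proteoglycan genes alone), and each mouse left out. The meningeal slope and the splits by choroid plexus RNA were added after seeing the data. The genes most like Msr1 are not reported here.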

Additional observations from a re-analysis of the deposited data

Results flagged for a closer look

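Of 48 sets of 5 mice examined for a value far from its neighbours (10 genes and 2 scores in 4 groups), 3 held one. Independent, normally distributed values would give about 1 in 20. The genes and scores share their libraries and the choroid plexus score falls into 2 sets, so that rate need not hold here. F13a1 in KO Tg-SwDI mouse 3 was 4.01 CPM, against 1.83 to 2.41 CPM in the other 4 mice of its group. The choroid plexus score of WT Tg-SwDI mouse 7 was -2.05 and that of KO Tg-SwDI mouse 2 was -2.02, while the other 4 mice of each group scored above 1. KO Tg-SwDI mouse 3 also had the highest meningeal fibroblast score of the 20 libraries, 0.92, and the part of meninges in its F13a1 value was not tested.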

How the results depend on the processing

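The direction and side of the threshold held for 678 of 750 values of single genes under the alternatives other than leaving out a mouse, and 56 changed sign, none of them a called value, where a value that rounded to 0.00 counted as having no direction. Not counted for that reason were the interaction of Stab1 (0.002, and below 0 under 7 alternatives, among them -0.17 with the meningeal score, -0.099 with the choroid plexus score and -0.132 in the libraries without choroid plexus RNA), the interaction of Lyve1 (-0.005, and 0.003 with no filter) and Stab1 between KO and WT Tg-SwDI (-0.01, and 0.004 with the choroid plexus score). The number of genes called between KO and WT Tg-SwDI mice went from 0 to 1 (Pf4) with the exactTest, with the choroid plexus score or class as a covariate and without WT Non-Tg mouse 7, and ranged from 0 to 1 as single mice were left out (1 without WT Non-Tg mouse 2, WT Non-Tg mouse 7 or KO Tg-SwDI mouse 2). Between Tg-SwDI and Non-Tg KO mice the 1 call (Msr1) became 2 (with Ms4a7) with the exactTest, with the compared groups alone and without WT Non-Tg mouse 7, and 0 with the choroid plexus score, with its class and in the 9 libraries without choroid plexus RNA. It was also 0 with the stricter filter, under which Msr1 was not tested. The range was 1 to 2 with single mice left out (2 without WT Non-Tg mouse 3, WT Non-Tg mouse 7 or KO Tg-SwDI mouse 2). For the slope on the choroid plexus score, the median over the list called 1 gene (Mrc1) and leaving out single mice 0 to 2 (2 without KO Non-Tg mouse 1). The libraries with choroid plexus RNA alone could not be used for comparisons with KO Non-Tg mice, which had none. The cause of these changes was not tested, except that fewer libraries or genes entered some fits. For alternatives whose share of all genes called is not printed above, the counts here and below cannot be read as a result about these genes.

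Replicate numbers in the labels were not seen to mark pairs. The correlations used also carry the choroid plexus differences between libraries, so they could miss a pairing. Of 16 pairs of same-numbered mice 2 correlated above 0.1 (r from -0.40 to 0.15), and 1 of 20 mice was nearest to a mouse of its own number. The fit with the replicate block still called 1 gene between Tg-SwDI and Non-Tg KO mice (Msr1, 1.75) and 4 genes for the meningeal slope, without Lyve1 and Cbr2. It turned Stab1 (0.044, KO against WT Non-Tg), Lyve1 (0.011, transgene in WT), and the slopes of Msr1 (0.053) and Cd36 (0.062).

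Uncalled values changed sign as follows, on the log2 scale. With the choroid plexus score they were Ms4a7 0.061 and Stab1 0.10 (KO against WT Non-Tg), Mrc1 -0.31, Cbr2 -0.028 and Stab1 -0.049 (transgene in KO), and Mrc1 -0.009 and F13a1 -0.23 (interaction). With its class they were Ms4a7 0.17 and Stab1 0.12, then Mrc1 -0.41, Cd163 -0.07, Cbr2 -0.069 and Stab1 -0.064, then Mrc1 -0.12 and F13a1 -0.33. In the libraries without choroid plexus RNA they were Ms4a7 -0.056 and Stab1 0.039 (KO against WT Tg-SwDI), Ms4a7 0.42 and Stab1 0.17 (Non-Tg), Mrc1 -0.46, Cd163 -0.345, Pf4 -0.072 and Cbr2 -0.455 (transgene in KO), Lyve1 0.074 and Cd36 0.67 (transgene in WT), and Mrc1 -0.25, Cd163 -0.31, F13a1 -0.23, Cbr2 -0.15 and Ms4a7 -0.48 (interaction). Without WT Non-Tg mouse 7 they were Pf4 0.05 and Stab1 0.033 (Non-Tg), Cd163 0.037, Lyve1 0.15 and Cd36 0.12 (transgene in WT), and F13a1 -0.009 (interaction). With the meningeal score they were F13a1 -0.052 and Ms4a7 -0.10 (Tg-SwDI), Stab1 0.039 (Non-Tg), Mrc1 -0.045 (transgene in KO), Mrc1 0.016, Cd163 0.16, Lyve1 0.16 and F13a1 0.063 (transgene in WT), and Mrc1 -0.061 and F13a1 -0.275 (interaction). With both scores the choroid plexus slopes were -0.007 for Mrc1, -0.011 for Cd163, -0.056 for Lyve1, -0.10 for Pf4, -0.10 for Cbr2 and -0.047 for Stab1.

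With single mice left out, values that crossed 0 ranged between KO and WT Tg-SwDI from -0.041 to 0.34 (F13a1) and -0.155 to 0.105 (Stab1). In Non-Tg they ranged from -0.046 to 0.32 (Mrc1), -0.11 to 0.23 (Cd163), -0.385 to 0.05 (Pf4), -0.064 to 0.23 (F13a1), -0.15 to 0.17 (Cbr2) and -0.15 to 0.07 (Stab1). For the transgene in KO they were -0.019 to 0.36 (Mrc1), -0.19 to 0.25 (Lyve1), -0.28 to 0.15 (F13a1), -0.098 to 0.37 (Cbr2) and -0.044 to 0.24 (Stab1), and in WT -0.225 to 0.082 (Cd163), -0.19 to 0.15 (Lyve1) and -0.25 to 0.12 (Cd36). The interaction ranged from -0.145 to 0.28 (F13a1) and -0.36 to 0.015 (Cd36), with -0.184 to 0.264 for Lyve1 and -0.143 to 0.143 for Stab1, and the slopes from -0.093 to 0.042 (Msr1, choroid plexus) and -0.17 to 0.046 (Cd36, meninges). Msr1 stayed called with every mouse left out in turn (1.35 to 2.23, adjusted p 0.00322 to 0.0421 by edgeR), and the meningeal slope called 4 to 6 genes. The fits with a mouse left out kept the filter set on all 20 libraries, which Msr1 passed only with the KO Tg-SwDI mice. They therefore do not address that selection of Msr1.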
